A study of Homo sapiens with 4 samples.

Results

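The genes that move and store zinc were followed in ARP1, an established human multiple myeloma line, a cancer of antibody-secreting plasma cells. They comprise the SLC30 (ZnT) and SLC39 (ZIP) transporter families, the metallothioneins and the metal-sensing transcription factor gene MTF1. Members were taken by gene symbol from the deposited gene table, which gave 37 of 58825 rows: 10 SLC30 genes, 14 SLC39 genes, 12 metallothionein genes or pseudogenes, and MTF1. The set was proposed because SLC39A9 stood out in an earlier comparison of these same libraries, so its values in that comparison are given as a description.

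Poly(A)-selected RNA was sequenced from ARP1 cells overexpressing RFWD2, an E3 ubiquitin ligase gene listed as COP1 in the table, and from wild type ARP1 cells, with 2 libraries each. No treatment, time point or further allele is labelled. How RFWD2 was overexpressed, whether the overexpressing cells were 1 clone, and whether repeats were separate cultures was not given in the sources used here, so the spread between libraries may in part be technical. RFWD2 itself was at 13.5 and 13.9 FPKM (fragments scaled to transcript length and sequencing depth) in overexpressing cells versus 5.99 and 8.93 FPKM in wild type, with no overlap between the groups. Pairs of values here and below are in the order library 1, library 2. Total estimated counts were 62143098 to 70713792 per library. The 9 plasma cell markers lay between 7.30 and 1139 FPKM, and the 4 B cell, 3 T cell, 4 myeloid, 4 erythroid, 4 adipocyte and 3 fibroblast markers each stayed at or below 1.29 FPKM. Summed myeloid markers were at 1.21 and 1.28 FPKM with overexpression against 0.470 and 0.125 FPKM, mostly CSF1R. Summed fibroblast markers were at 1.07 and 0.515 against 0.354 and 0.133 FPKM. CD22, CD3D, LYZ, COL1A2 and the 4 adipocyte markers were listed at 0 in each library. The part of such cells in the results was not tested. By likeness, the libraries paired up by their replicate number, since Pearson's r of log2 CPM over 11203 genes was 0.96 and 0.97 between the genotypes within numbers 1 and 2, and 0.90 and 0.93 between the numbers within overexpression and wild type. Genes are not independent replicates, and these values only rank the pairs.

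ZIP proteins carry zinc into the cytosol, from outside the cell or from an organelle, and ZnT proteins carry it out of the cytosol. Metallothioneins are small cysteine-rich proteins that bind zinc and copper, and MTF1 senses free zinc and switches on metallothionein genes and SLC30A1 through metal response elements in their promoters. ZIP7 releases zinc from the endoplasmic reticulum and is needed for B cell development in humans and mice, and ZIP9, at the Golgi apparatus and cell surface, was linked to kinase signalling through zinc in chicken B cells.

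The start regions of the genes at the centre of the results are shown first, from RefSeq windows on GRCh38.p14 that run from 250 bases before to 50 bases after a gene start. Windows matched 27 of the 37 members by symbol, several of them with more than 1 start. SLC39A9 has windows at chr14:69398134-69398433 and chr14:69398442-69398741 on the plus strand. Capitals mark CCGGAAGT on either strand, an ETS-type motif that was chosen after these letters had been read.

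SLC39A9 start a: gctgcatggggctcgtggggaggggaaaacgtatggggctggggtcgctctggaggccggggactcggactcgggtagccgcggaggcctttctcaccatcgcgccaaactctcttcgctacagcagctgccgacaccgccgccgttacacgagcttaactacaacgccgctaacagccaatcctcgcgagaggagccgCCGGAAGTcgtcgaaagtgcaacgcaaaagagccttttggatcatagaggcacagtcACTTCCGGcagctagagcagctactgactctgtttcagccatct
SLC39A9 start b: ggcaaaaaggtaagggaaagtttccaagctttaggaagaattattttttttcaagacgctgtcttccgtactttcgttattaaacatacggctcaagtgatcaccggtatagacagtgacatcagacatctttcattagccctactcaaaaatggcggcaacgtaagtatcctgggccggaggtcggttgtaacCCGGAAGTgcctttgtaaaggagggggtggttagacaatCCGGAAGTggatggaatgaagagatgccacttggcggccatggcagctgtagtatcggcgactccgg

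Each SLC39A9 window held 2 matches, beginning at -51 and 6 in the first and at -56 and -17 in the second, counted from the gene start as 0. Of all 35116 windows, 4.14% held at least 1 match and 0.382% at least 2. For windows of genes averaging at least 1 FPKM these shares were 8.81% and 0.938%. The 2 matches of the first window also lie in the window of ERH, a gene that starts 85 bases away on the opposite strand. Among the other members, SLC30A7 held 1 match. A match describes letters only.

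The 2 metallothionein genes averaging at least 1 FPKM are shown for contrast, at chr16:56608334-56608633 (MT2A) and chr16:56682220-56682519 (MT1X), both on the plus strand. Capitals mark the core of the metal response element, searched as TGCACNC and TGCGCNC on both strands, with N for any base and overlapping matches allowed.

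MT2A: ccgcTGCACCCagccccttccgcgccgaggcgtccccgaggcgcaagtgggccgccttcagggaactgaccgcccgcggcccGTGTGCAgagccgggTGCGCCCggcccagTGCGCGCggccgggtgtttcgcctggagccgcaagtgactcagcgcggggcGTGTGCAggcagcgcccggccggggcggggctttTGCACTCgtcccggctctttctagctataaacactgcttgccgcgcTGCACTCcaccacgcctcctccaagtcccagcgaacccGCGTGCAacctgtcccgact
MT1X: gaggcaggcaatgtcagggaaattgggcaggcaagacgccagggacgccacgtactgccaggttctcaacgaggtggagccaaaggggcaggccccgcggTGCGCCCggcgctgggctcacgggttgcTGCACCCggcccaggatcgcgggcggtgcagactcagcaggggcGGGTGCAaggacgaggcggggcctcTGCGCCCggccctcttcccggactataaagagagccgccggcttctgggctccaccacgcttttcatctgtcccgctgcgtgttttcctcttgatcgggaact

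MT2A held 8 core matches and MT1X 4. All 5 metallothionein windows held at least 3, including those of MT1B, MT1H and MT4, whose RNA was not detected. At least 3 matches were present in 2.3% of all windows. Neither SLC39A9 window held a core match, and none of the 19 SLC39 windows held more than 1, against 8.60% of all windows with at least 2. At least 1 match was present in 6 of the 11 SLC30 windows and in 7 of the 19 SLC39 windows. That share was 29.6% over all windows and 37.9% over windows of genes averaging at least 1 FPKM. At least 2 matches were present in 3 of the SLC30 windows, beside the same 8.60% of all windows. SLC30A2, whose RNA was not detected, held 3, while SLC30A1 and an SLC30A3 window held 2 each.

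Of the 37 members, 19 had a mean of at least 1 FPKM over the 4 libraries: 11 SLC39 genes, 5 SLC30 genes, MT2A, MT1X and MTF1. A further 6 had some counts below that mean, and 12 had a count of 0 in each library. A count of 0 allows up to 3 counts, or 0.0424 to 0.0483 CPM depending on the library, for counting error only. The 12 were MT1A, MT1B, MT1E, MT1G, MT1H, MT1L, MT1M, MT3, MT4, SLC30A2, SLC30A10 and SLC39A12. SLC30A2 is known from mammary zinc secretion, and SLC30A10 as a manganese exporter.

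**Figure D1:**
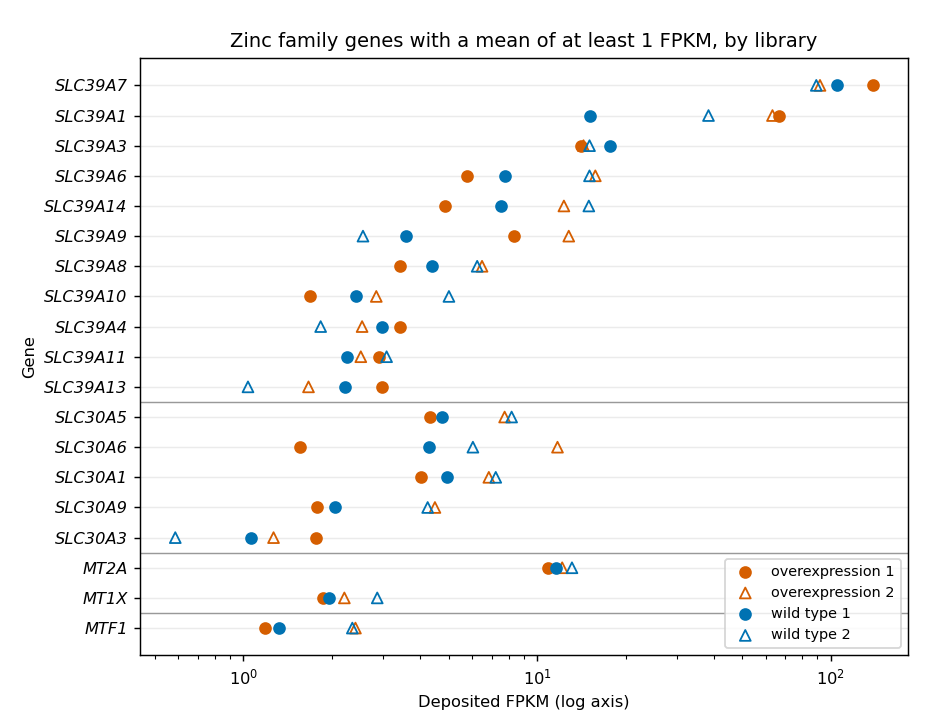
Deposited FPKM (log axis) of the 19 members averaging at least 1 FPKM, 1 row per gene grouped by family; filled circles are libraries numbered 1, open triangles libraries numbered 2, orange overexpression and blue wild type. Colours separate for SLC39A9 (8.38 and 12.8 against 3.59 and 2.55 FPKM) and SLC39A1 (66.8 and 63.3 against 15.2 and 38.3 FPKM). They also separate for SLC30A3 (1.76 and 1.27 against 1.07 and 0.587 FPKM) and, with overexpression lower, SLC39A3 (14.2 and 14.4 against 17.7 and 15.1 FPKM). Of all tested genes, 12.8% were higher and 7.73% lower with overexpression without overlap. Shapes separate for genes such as SLC39A6, SLC39A14 and SLC30A9.

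SLC39A9 encodes ZIP9 (ENSG00000029364, plus strand of chromosome 14, 69398015 to 69462390 in the deposited table). It was at 8.38 and 12.8 FPKM in overexpression libraries 1 and 2 and at 3.59 and 2.55 FPKM in wild type libraries 1 and 2. Both overexpression libraries lay above both wild type libraries, with means of 10.6 ± 3.14 against 3.07 ± 0.73 FPKM (SD, n = 2 each). In bulk RNA, more cells with the transcript and more transcript per cell cannot be told apart. The ratio of FPKM was 2.34 within replicate number 1 and 5.02 within number 2. The fitted log2 fold change was 1.69 ± 0.41 (SE), which ranked 449 from the highest of all 18873 tested genes and 37 of the 11203 averaging at least 1 FPKM, a place that is part of why the gene was picked. Without wild type library 1 the fitted value was 2.09, and without wild type library 2 it was 1.37. Within the SLC39 family, SLC39A9 ranked 4 and 5 by FPKM in overexpression libraries 1 and 2. In wild type libraries 1 and 2 it ranked 7 and 9.

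The reads behind SLC39A9 are little exposed to other genes by sequence. None of its 7365 distinct windows of 50 bases, taken from GENCODE 29 transcripts, occurred in a transcript of another gene, and no model overlapped it on the same strand. Its first 285 bases overlap the start of ERH, a conserved factor linked to RNA processing, on the opposite strand. ERH was at 47.4 and 113 FPKM in overexpressing cells versus 58.5 and 103 FPKM in wild type cells, so it was high in the libraries numbered 2 and did not separate the genotypes. Whether counting used strand was not given by the labels or headers.

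The other nearest genes averaging at least 1 FPKM were DCAF5, a substrate adaptor of CUL4 ligases, and the exonuclease gene EXD2 on one side, and SUSD6, the splicing factor gene SRSF5 and the ribosomal protein pseudogene RPL7AP6 on the other. Their fitted log2 fold changes ran from -0.38 (RPL7AP6) to 0.24 (DCAF5), with ERH at -0.08, and in no neighbour did the genotypes separate. Over all tested genes, 12.8% were higher and 7.73% lower with overexpression without overlap in FPKM. DCAF5 was at 3.58 and 5.78 FPKM against 3.96 and 3.48 FPKM. EXD2 was at 1.42 and 2.87 FPKM against 1.66 and 2.40 FPKM. The pseudogene RPL7AP6 was listed at 249 and 148 FPKM against 328 and 180 FPKM. Sequence shared with other genes was not searched for in the neighbours, so whether its reads come from elsewhere was not tested.

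**Figure D2:**
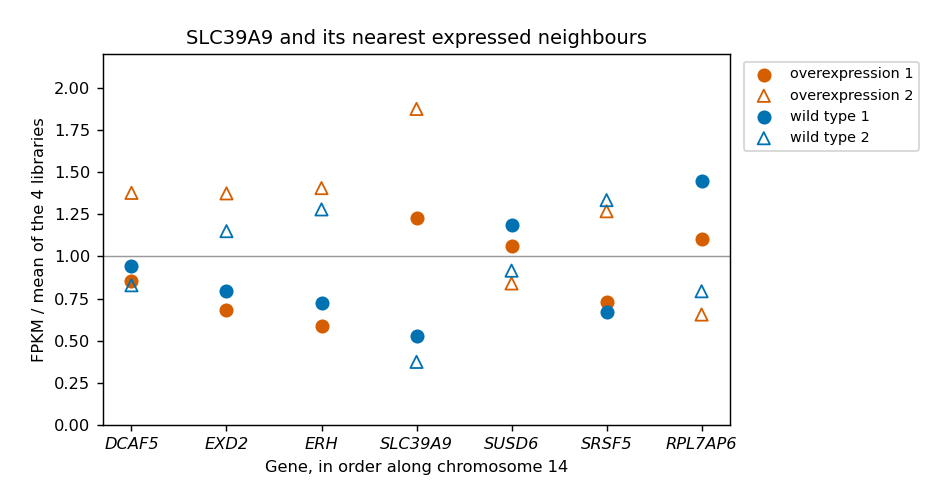
FPKM of SLC39A9 and its 6 nearest genes averaging at least 1 FPKM, in order along chromosome 14, each divided by the gene's mean over the 4 libraries; symbols as for the plot of FPKM by library. The overexpression libraries are the upper points for SLC39A9 alone among these 7 genes, and each of the others but DCAF5 splits by replicate number, with ERH, EXD2 and SRSF5 higher and SUSD6 and RPL7AP6 lower in the libraries numbered 2. Over all tested genes, 44.4% were higher and 20.5% lower in the libraries numbered 2 without overlap in FPKM.

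Over the whole table, edgeR's quasi-likelihood test called 0 of 18873 genes between overexpression and wild type (0%) at a Benjamini-Hochberg adjusted p under 0.05, and so 0 of the 22 members that passed its filter on low counts. Each of the other 21 had an adjusted p of 0.9998. An unadjusted p under 0.05 was reached by 346 genes (1.83% of those tested). Leaving SLC39A9 aside, which was chosen on this contrast and whose p is not read as a test, SLC39A1 was the 1 member among them. DESeq2 called 55 genes and 0 members, and limma called 0 genes and 0 members. The members' fold changes are therefore descriptions. The 15 members that did not pass were the 12 with no counts and SLC30A8, SLC39A2 and SLC39A5, which each stayed under 0.06 FPKM. SLC30A8 loads zinc into insulin granules.

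Groups did not overlap in FPKM for 5 tested members. Overexpression was higher in 4 of 22 (SLC39A9, SLC39A1, SLC30A3 and MT1F), beside 12.8% of all tested genes, and lower in 1 (SLC39A3), beside 7.73%. With CPM scaled by TMM (trimmed mean of M values, which sets the bulk of genes level between libraries), overexpression was higher in 3 (SLC39A9, SLC39A1 and MT1F), beside 10.7%, and lower in 3 (SLC39A10, MT1X and MT2A), beside 10.6%. On both scales overexpression was higher in 3, SLC39A9, SLC39A1 and MT1F, beside 8.73% of all tested genes, and lower in 0, beside 6.08%. SLC39A9 was chosen on this contrast, and among 22 members the background shares correspond to a few genes in either direction.

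SLC39A7, encoding ZIP7 of the endoplasmic reticulum, held the highest FPKM of the family in every library. It was at 139 and 91.8 FPKM in overexpressing cells versus 105 and 89.2 FPKM in wild type cells. Both libraries numbered 1 lay above both numbered 2, and the genotypes overlapped. It made up 54.9% and 40.5% of the summed SLC39 FPKM with overexpression, and 61.4% and 46.3% in wild type.

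SLC39A1 encodes ZIP1, a zinc importer of the plasma membrane in many tissues. It was at 66.8 and 63.3 FPKM in overexpressing cells versus 15.2 and 38.3 FPKM in wild type cells, or 65.1 ± 2.51 against 26.7 ± 16.4 FPKM (SD, n = 2 each). The overexpression libraries were close to each other, and wild type library 1 was the lowest of the 4. The ratio of FPKM was 4.41 within replicate number 1 and 1.65 within number 2, and the fitted log2 fold change was 1.3 ± 0.46 (SE). Without wild type library 1 it was 0.85, and without wild type library 2 it was 1.95. Of the 3648 windows of 50 bases in SLC39A1 transcripts, 55.2% also occur in 1 other gene, a same-strand model named AL358472 that spans 9034 bases of SLC39A1 and had a count of 0 in each library. Whether reads of the shared windows were assigned to SLC39A1 alone was not tested. CREB3L4, which overlaps SLC39A1 by 651 bases on the opposite strand, was at 10.7 and 9.81 FPKM against 9.03 and 8.89 FPKM.

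SLC39A1 supplied 26.4% and 27.9% of the summed SLC39 FPKM with overexpression and 8.88% and 19.9% in wild type. SLC39A9 supplied 3.30% and 5.66% against 2.10% and 1.33%. The sum over the family was 254 and 227 FPKM in overexpressing cells versus 171 and 193 FPKM in wild type cells, so the groups did not overlap. Of all tested genes, 12.8% were likewise higher with overexpression without overlap in FPKM. The sum includes SLC39A9, which was chosen on this contrast. The median log2 fold change of the 10 SLC39 genes other than SLC39A9 was -0.08. SLC39A7 and SLC39A1 together were the 2 main contributors in each library except wild type library 1, where SLC39A3 came second.

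**Figure D3:**
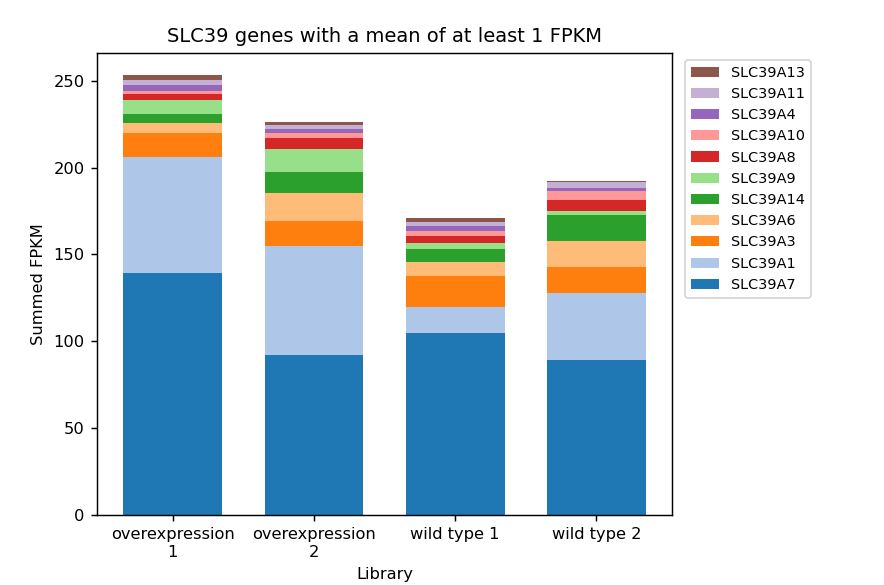
Summed FPKM of the 11 SLC39 genes averaging at least 1 FPKM, 1 bar per library and 1 colour per gene. The SLC39A7 segment is the tallest in every bar, and the SLC39A1 segment is 66.8 and 63.3 FPKM in the overexpression libraries against 15.2 and 38.3 FPKM in wild type.

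SLC39A3, encoding ZIP3, another plasma membrane importer, was at 14.2 and 14.4 FPKM in overexpressing cells versus 17.7 and 15.1 FPKM in wild type cells. The groups did not overlap in FPKM, by a narrow margin, and overlapped in TMM-scaled CPM (83.7 and 67.1 against 104 and 75.1). Its fitted log2 fold change was -0.25 ± 0.36 (SE). Of its windows of 50 bases, 8.84% occur in another gene, and a same-strand model named AC006538, at 0.377 to 0.997 FPKM in the 4 libraries, overlaps it by 7814 bases.

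SLC39A6 and SLC39A10 encode related importers, of which ZIP10 is known from mice for a role in B cell survival and signalling. SLC39A10 was at 1.69 and 2.84 FPKM in overexpressing cells versus 2.43 and 5.01 FPKM in wild type cells. It was lower with overexpression within each replicate number, and the groups overlapped in FPKM but not in TMM-scaled CPM (15.6 and 20.7 against 22.4 and 39.0). Its fitted log2 fold change of -0.76 ± 0.46 (SE) was the lowest of the tested members, and it ran to -0.30 without wild type library 2 and to -1.11 without wild type library 1. SLC39A6 was at 5.79 and 15.8 FPKM against 7.80 and 15.1 FPKM, so the libraries numbered 2 were both high and the genotypes overlapped.

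SLC39A14 and SLC39A8 encode ZIP14 and ZIP8, which also carry iron and manganese. SLC39A14 was at 4.84 and 12.3 FPKM in overexpressing cells versus 7.51 and 15.002 FPKM in wild type cells. SLC39A8 was at 3.40 and 6.50 FPKM against 4.39 and 6.25 FPKM. A same-strand model named AC098487, at 0.891 to 1.05 FPKM, overlaps SLC39A8. In both transporter genes each library numbered 2 lay above each library numbered 1, and the genotypes overlapped.

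SLC39A13, SLC39A4 and SLC39A11 were low. SLC39A13, whose protein acts in the early secretory pathway of connective tissue cells, was at 2.96 and 1.67 FPKM against 2.21 and 1.04 FPKM. SLC39A4, the intestinal zinc importer gene, was at 3.42 and 2.54 FPKM against 2.96 and 1.83 FPKM. Both were higher with overexpression within each number and highest in the libraries numbered 1, with fitted log2 fold changes of 0.47 ± 0.65 and 0.27 ± 0.52 (SE). Both turned below 0 when a library was left out, SLC39A13 to -0.23 and SLC39A4 to -0.17 without overexpression library 1, and to -0.04 and -0.12 without wild type library 2. Without wild type library 1 they were 1.27 and 0.80. Leaving out a library leaves the replicate numbers unequal between the genotypes, so such values mix both differences. With the replicate number added to the fit (replicate block), the values were 0.50 for SLC39A13 and 0.29 for SLC39A4. SLC39A11 was at 2.89 and 2.51 FPKM against 2.25 and 3.07 FPKM, with no order by genotype or number. SLC39A9 and SLC39A1 thus stood at 1.69 and 1.3 on the log2 scale while the other 9 tested SLC39 genes lay between -0.76 and 0.47. The median over the 10 SLC39 genes other than SLC39A9 was -0.08, beside 0.01 over all genes tested, with 5 above 0 and 5 below.

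The exporters were lower in level than the leading importers, with a summed SLC30 FPKM of 14.1 and 33.6 with overexpression and 17.9 and 27.4 in wild type. SLC30A1, the plasma membrane exporter gene and a known MTF1 target, was at 4.01 and 6.85 FPKM in overexpressing cells versus 4.94 and 7.23 FPKM in wild type cells. SLC30A5, whose protein pairs with that of SLC30A6 to load zinc into secretory enzymes, was at 4.30 and 7.75 FPKM against 4.76 and 8.19 FPKM. SLC30A9, encoding a mitochondrial zinc exporter, was at 1.77 and 4.49 FPKM against 2.05 and 4.24 FPKM. In these 3 genes the libraries of the same number lay close together and the genotypes overlapped.

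SLC30A6 varied most among the exporters with a mean of at least 1 FPKM. It was at 1.56 and 11.7 FPKM in overexpressing cells versus 4.29 and 6.05 FPKM in wild type cells. The 2 overexpression libraries were the lowest and the highest of the 4, a ratio of 7.52, whereas the partner gene SLC30A5 differed by a ratio of 1.80 between the same libraries. The fitted log2 fold change of SLC30A6 was 0.21 ± 0.80 (SE), and its direction depended on the fit. With all libraries kept it was -0.29 with the replicate number added to the fit. The difference was -0.10 in log2(FPKM + 1) and -0.23 in log2(FPKM + 0.1). Without overexpression library 2 the fitted value was -1.58, while without overexpression library 1 it was 0.98. Of its windows of 50 bases, 0.625% occur in another gene.

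SLC30A3, known for zinc in synaptic vesicles, was at 1.76 and 1.27 FPKM in overexpressing cells versus 1.07 and 0.587 FPKM in wild type cells. The groups did not overlap in FPKM but overlapped in TMM-scaled CPM (14.1 and 8.01 against 8.50 and 3.96). The ratio of FPKM was 1.66 within number 1 and 2.16 within number 2, and the fitted log2 fold change was 0.83 ± 0.57 (SE). It was 1.48 without wild type library 1, 0.36 on omitting overexpression library 1 and 0.38 on omitting wild type library 2. With the replicate block it was 0.87 ± 0.26 (SE). SLC30A7, a Golgi loader of zinc, was at 0.663 and 1.42 FPKM against 0.801 and 1.07 FPKM. SLC30A4 had counts in the libraries numbered 2 only, 34 with overexpression and 20 in wild type. The median log2 fold change of the 7 tested SLC30 genes was 0.06, with 4 above 0 and 3 below, beside 0.01 over all genes tested.

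Metallothionein RNA was almost all MT2A and MT1X. MT2A was at 10.9 and 12.2 FPKM in overexpressing cells versus 11.6 and 13.1 FPKM in wild type cells, and the groups overlapped. On the TMM scale it was at 13.3 and 11.7 CPM against 14.2 and 13.5 CPM, which did not overlap, with a fitted log2 fold change of -0.14 ± 0.40 (SE). MT2A was the steadiest of the members averaging at least 1 FPKM by the spread of log2 CPM within a genotype (pooled SD 0.095). MT1X was at 1.87 and 2.21 FPKM against 1.96 and 2.86 FPKM. MT2A stood at 4.60 to 5.94 times MT1X in the 4 libraries, and the summed metallothionein FPKM was 13.1 and 14.7 with overexpression and 13.6 and 16.1 in wild type. Metallothionein genes resemble each other, and 18.3% of MT1X windows and 3.02% of MT2A windows of 50 bases occur in another gene, so reads may have been split between copies. Counts summed over all MT1 and MT2A genes gave a log2 fold change of -0.13.

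MT1F was low, at 0.331 and 0.274 FPKM in overexpressing cells versus 0.064 and 0.127 FPKM in wild type cells. These values rest on estimated counts of 47 and 44 against 11 and 21, and the groups did not overlap on either scale. The fitted log2 fold change was 1.61 ± 0.82 (SE), while the difference was 0.25 in log2(FPKM + 1) and 1.06 in log2(FPKM + 0.1). Of its windows, 1.22% occur in another gene. MTF1 was at 1.18 and 2.41 FPKM in overexpressing cells versus 1.33 and 2.35 FPKM in wild type cells, high in the libraries numbered 2 of either genotype.

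The replicate numbers separated more members than the genotypes did, as they also did over all tested genes. The deposited FPKM are themselves higher in the libraries numbered 2, with a median log2 difference of 0.26 for overexpression and 0.24 for wild type over 11147 genes. On TMM-scaled CPM these medians are -0.08 and -0.0044. On the TMM scale both libraries numbered 2 lay above both numbered 1 for 10 of 22 members, beside 32.8% of all tested genes, and below for 5, beside 30.6%. In FPKM the counts were 13, beside 44.4%, and 3, beside 20.5%. The 10 members that were higher in the libraries numbered 2 on both scales were SLC30A1, SLC30A4, SLC30A5, SLC30A6, SLC30A7, SLC30A9, SLC39A6, SLC39A8, SLC39A14 and MTF1, and the 3 that were lower on both were SLC39A4, SLC39A7 and SLC39A13.

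Exporters made up 6 of these 10. All 7 tested SLC30 genes differed more between the numbers than between the genotypes, as did 8 of 11 SLC39 genes, MTF1 and none of the 3 tested metallothionein genes, beside 71.6% of all genes tested. The SLC39 exceptions were SLC39A9, SLC39A1 and SLC39A10. SLC39A9 differed by 1.73 between genotypes and by -0.23 between numbers (2 minus 1) in log2 TMM-scaled CPM. The sources used here do not give what the replicate number stands for, and its part in the genotype differences was not tested.

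**Figure D4:**
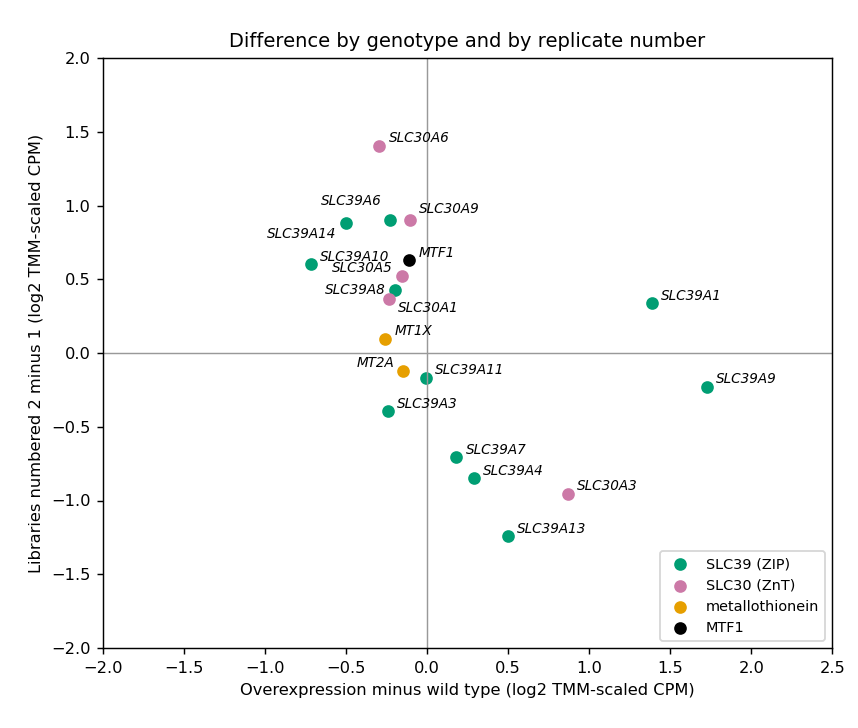
Mean difference of log2 TMM-scaled CPM between overexpression and wild type (x axis) and between libraries numbered 2 and 1 (y axis) for the 19 members averaging at least 1 FPKM, coloured by family. SLC39A9 (1.73) and SLC39A1 (1.39) lie far right, with y values of -0.23 and 0.34, and SLC30A6 (1.41) and SLC39A13 (-1.24) mark the ends of the y axis.

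Of 31 further metal-handling genes written down as a list, 30 were in the table and 27 were tested. The same edgeR fit called 0 of them at an adjusted p under 0.05 and 0 had an unadjusted p under 0.05, and both counts were also 0 with DESeq2 and with limma. Their median log2 fold change was 0.05, with 15 above 0 and 12 below. CNNM1, with the smallest unadjusted edgeR p of those averaging at least 1 FPKM, was at 0.599 and 1.27 FPKM with overexpression against 1.19 and 1.84 FPKM. The transferrin receptor gene TFRC was at 4.98 and 22.2 FPKM in overexpressing cells versus 14.04 and 27.3 FPKM in wild type cells. SLC40A1 was at 0.883 and 2.97 FPKM against 0.961 and 1.52 FPKM. The haem oxygenase gene HMOX1 was at 13.3 and 10.1 FPKM against 6.04 and 10.8 FPKM. SLC48A1, a haem transporter gene, was at 5.08 and 3.61 FPKM against 3.24 and 2.84 FPKM. MCOLN1, a lysosomal cation channel gene, was at 4.75 and 5.77 FPKM against 6.30 and 5.97 FPKM. Groups did not overlap in FPKM for 5 of the 27. Overexpression was higher in 4 (14.8%), SLC48A1 and, named after their values were seen, ATP7B, SLC41A1 and FTH1, beside 12.8% of all tested genes. It was lower in 1 (3.70%), MCOLN1, beside 7.73%.

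Of 20 genes for zinc-binding proteins of the secretory pathway, 19 were in the table and 13 were tested, with 0 called and 0 at an unadjusted p under 0.05 by edgeR, DESeq2 or limma, and a median log2 fold change of 0.09. The chaperone gene ERP44, whose protein binds zinc delivered by Golgi exporters, was at 6.65 and 9.63 FPKM in overexpressing cells versus 9.93 and 10.9 FPKM in wild type cells. It was the 1 gene of the 13 (7.69%) whose groups did not overlap with overexpression lower, beside 7.73% of all tested genes, and 0 of the 13 were higher without overlap, beside 12.8%. The acid sphingomyelinase gene SMPD1 was at 11.5 and 7.81 FPKM against 8.03 and 5.52 FPKM. The ectonucleotidase gene NT5E was at 1.70 and 2.75 FPKM against 2.52 and 2.94 FPKM. The alkaline phosphatase genes ALPL, ALPP and ALPI were listed at 0 in every library.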

How the data were processed

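Groups were taken from the labelled genotype and replicate numbers from the titles. The authors' deposited table holds whole-number count columns and FPKM columns, 1 of each per library, per the file headers. Tools listed without roles in the submitters' processing notes are StringTie 1.3.0, HISAT2 2.0 and Bowtie 0.12.2, beside a mouse build, mm8, although the table lists human Ensembl genes. The labels' extract protocol speaks of an adipose type as the RNA source, although the cells are labelled ARP1. All 37 members are in GENCODE 29 (GRCh38), 31 of them on identical chromosome and strand with 1 or both ends shared. The counter and its strand setting are named in no source used here. The values in the deposited count columns are handled as estimated counts, since 35.4% to 36.0% of counts from 1 to 19 were multiples of 4. The deposited FPKM placeholder 0.0001 was set to 0. Intervals of fold changes are standard errors, from the fit without a replicate block unless the block is named. They were derived as the absolute log2 fold change divided by the square root of the quasi-likelihood F statistic. edgeR 4.0.16 (R 4.3.3; TMM, filterByExpr, quasi-likelihood, Benjamini-Hochberg over 18873 genes, two-sided) was the test, checked on simulated counts. With 2 libraries per group an exact permutation test was not used. Within-number and between-number differences use log2 CPM (prior count 2). Alternatives were DESeq2 1.42.0, limma 3.58.1 on log2(FPKM + 1), RLE factors, other filters, counts divided by 4, a replicate block and leaving out each library. Members averaging at least 1 FPKM were named by rule, SLC39A9 first. Members and lists were chosen with earlier results of these data known, and the sums over models overlapping SLC39A1 and the ETS-type motif were chosen after seeing the data.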

Additional observations from a re-analysis of the deposited data

How the results depend on the processing

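No alternative called a member. The count of called genes over the table was 0 except for 8 with no filter on low counts, 55 with DESeq2 and 73 to 183 when a library was left out (144 and 183 on omitting overexpression libraries 1 and 2, 73 and 83 on omitting those of wild type), and the cause was not tested. Those fits leave 1 library in a group, which is assumed to vary like the other group. The SLC39A9 log2 fold change was 1.37 to 2.09 without each library in turn and 1.495 to 1.74 under the other alternatives. With the replicate block it was 1.73 and 0 genes were called. The block lowered the SE of each tested member except MT1F, for example to 0.26 for SLC30A3, 0.23 for SLC39A10 and 0.18 for SLC39A14. Their log2 fold changes with the block were 0.87, -0.72 and -0.50. The libraries share a number only, in 2 pairs, with a correlation of 0.59 between same-numbered deviations from the genotype means. Family medians moved by less than the spread between replicates, which includes the difference between replicate numbers. That spread was wide for SLC30, with an SD of 0.75. The SLC30 median of 0.06 ran to -0.45 without overexpression library 2 and to 0.36 without overexpression library 1, and was -0.11 with the replicate block. Of the other 21 members' fold changes, 22 of 84 values with a library left out and 4 of 165 others had the opposite sign. Leaving out a library leaves the replicate numbers unequal between the genotypes, so those 84 values mix both differences. No same-strand model overlaps SLC39A9, so its planned sum over overlapping models was not run. Depth limits MT1F and SLC30A4, which had at most 47 and 34 estimated counts in a library. The sum over models overlapping SLC39A1 adds at most 3 counts to a library, so it is no check on shared reads.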
